A study of Mus musculus with 6 samples.

Results

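The tumour suppressor p53 is a transcription factor that is held at a low level by the ubiquitin ligase Mdm2 and is stabilised by DNA damage and other stresses. It then switches on genes that feed back on p53, open the death pathway, repair DNA, alter metabolism or restrain growth, and in neural stem cells it is known to limit self-renewal.

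A set of 31 mouse genes, Trp53 and 30 of its known or proposed targets, was followed here out of 17254 genes with reads. The genes were chosen by symbol and matched to the gene identifiers of the tables, and all 31 were found. They were read by function as 7 feedback genes, 11 death genes, 4 repair genes and 4 metabolism genes, and 5 genes that fit none of these were read as growth control. The assignment follows general knowledge of each gene, and several genes have more than 1 role.

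RNA was sequenced from cultured mouse neural progenitor cells grown in N2 medium with EGF and bFGF, the growth factors that keep such cells dividing. The groups were cells given PQ, cells given NAC and control cells, with 2 libraries each and a treatment of 48 h, and the series describes the treatments as shifting the redox potential inside the cells. The labels spell out neither PQ nor NAC and give no dose, strain, passage or donor. Whether both libraries of a group stem from separate cultures is not said, and p-values therefore cover the spread between libraries alone, possibly a technical one.

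Summed expected counts were 9680436 to 10698241 per library. Of the 17254 genes 12813 passed the filter on low counts and were tested, and 29 of the 31 p53 genes were among them. Neural stem cell markers were present, with a sum over 12 markers of 6548 to 6825 CPM (counts scaled to library size) in PQ libraries and 4223 to 4277 in NAC libraries, against 5990 to 6179 in control libraries. Libraries of 1 group were closer to each other (chi-square per degree of freedom 4.07 to 6.77) than libraries of different groups (14.65 to 37.28). Of the 10 markers that were tested 1 rose and 2 fell with PQ, where 9.07% and 8.80% of all tested genes did, and 0 rose and 3 fell with NAC, where 8.65% and 9.26% did. The 10 markers of microglia and blood cells summed to 8.65 to 9.05 CPM in PQ libraries and 9.7 to 11.5 in NAC libraries, against 5.76 to 5.82 in control libraries, with Tyrobp at 0 and 1 of the 2 tested markers higher with NAC. The 6 markers of fibroblasts and pericytes summed to 3.23 to 7.03 CPM in PQ libraries and 3.47 to 3.89 in NAC libraries, against 1.97 to 2.73 in control libraries, with 1 of the 3 tested markers higher with PQ. Their part in the results was not tested. In bulk RNA, fewer cells of a type and less RNA per cell cannot be told apart.

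Levels of the genes relative to each other were read from the deposited FPKM, which are scaled to transcript length. In control libraries they covered a wide range. Rps27l, which encodes a ribosomal protein of the S27 family that binds Mdm2, and Ephx1, the microsomal epoxide hydrolase, were the most abundant of the set, at 181.3 and 180.8 FPKM. Each was above 97.3% of the genes tested. The tested death genes ran from 89.8 FPKM for Bax, the pore-forming protein of the mitochondrial outer membrane, to 1.96 FPKM for Pmaip1, which encodes the BH3-only protein Noxa. Trp53 itself stood at 74.7 FPKM, above 92% of tested genes. The repair genes were moderate, from 5.61 FPKM for Xpc to 12.0 for Polk. Perp, a membrane protein of desmosomes, and Gdf15, a secreted stress cytokine, had 0 to 3 and 0 to 7 expected counts per library. They were left out of the tests and no difference was detectable for them at this depth.

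**Figure D1:**
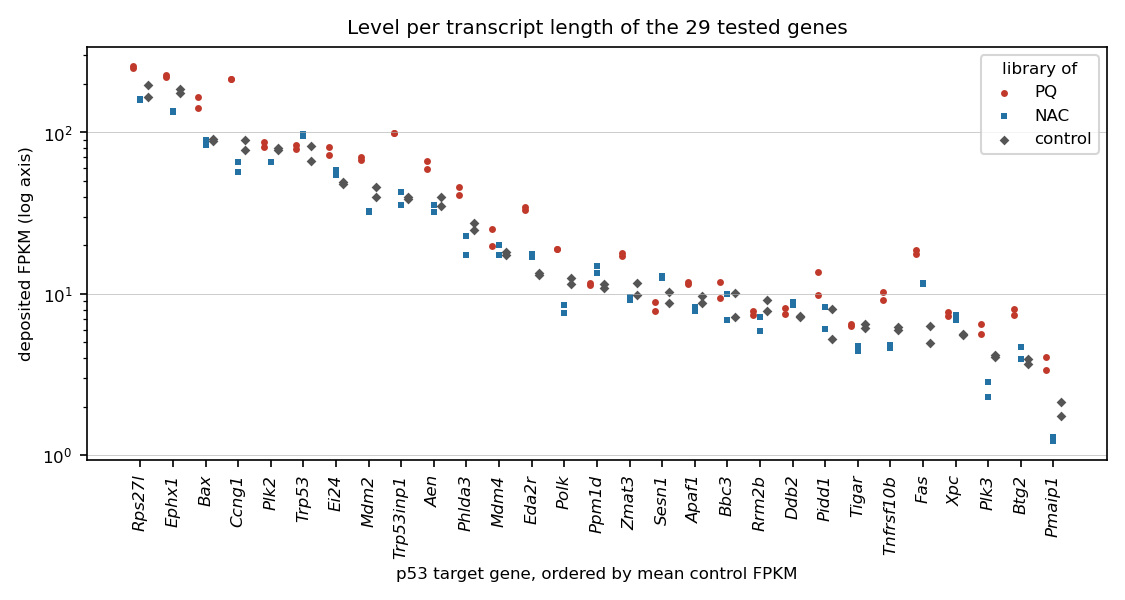
Deposited FPKM of the 29 tested p53 genes on a log axis, in each PQ, NAC and control library, with the genes ordered by their mean control FPKM. The order runs from Rps27l at 181.3 FPKM to Pmaip1 at 1.96 FPKM in control, and Ccng1 in PQ libraries (213.5 and 215.7 FPKM) sits well above its NAC and control libraries.

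The promoters of the set were searched for the p53 response element, since the genes were followed as p53 targets. The element was taken as 2 half-sites of 10 bases, at most 13 bases apart and with at most 2 mismatches in all, and with the C and G of each half-site core kept exact. A half-site reads the same on both strands. Windows ran from 250 bases before to 50 after an annotated start (RefSeq, GRCm38.p6), and 23 of the 31 genes had at least 1. The element was found in 4 of these 23 genes (17.4%), against 4.71% of all 27025 genes with a window, and with at most 1 mismatch in 2 of 23 (8.7%) against 0.72%. A perfect half-site stood in 10 of 23 (43.5%), against 9.55%. A gene counted once over all its windows, which were 31 for the 23 genes and 32851 for the 27025. The set was chosen as known or proposed p53 targets, so its higher shares are not independent of that choice. The 4 windows with an element are printed 5′ to 3′ on the strand of the gene, with the half-sites in capitals; the genes without a window were Trp53inp1, Pmaip1, Tnfrsf10b, Perp, Rrm2b, Ddb2, Xpc and Zmat3.
Ccng1: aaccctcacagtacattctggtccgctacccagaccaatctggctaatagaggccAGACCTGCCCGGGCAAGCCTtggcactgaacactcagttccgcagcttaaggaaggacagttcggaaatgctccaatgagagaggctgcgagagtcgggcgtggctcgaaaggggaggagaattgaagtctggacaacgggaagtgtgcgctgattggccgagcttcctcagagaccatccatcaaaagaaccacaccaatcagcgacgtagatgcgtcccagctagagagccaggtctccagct
Bax: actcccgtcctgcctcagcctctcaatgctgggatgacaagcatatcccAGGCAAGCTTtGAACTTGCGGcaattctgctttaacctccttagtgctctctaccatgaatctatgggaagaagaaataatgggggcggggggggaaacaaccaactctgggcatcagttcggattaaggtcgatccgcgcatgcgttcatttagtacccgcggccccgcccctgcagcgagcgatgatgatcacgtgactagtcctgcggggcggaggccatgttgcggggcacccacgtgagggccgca
Rps27l: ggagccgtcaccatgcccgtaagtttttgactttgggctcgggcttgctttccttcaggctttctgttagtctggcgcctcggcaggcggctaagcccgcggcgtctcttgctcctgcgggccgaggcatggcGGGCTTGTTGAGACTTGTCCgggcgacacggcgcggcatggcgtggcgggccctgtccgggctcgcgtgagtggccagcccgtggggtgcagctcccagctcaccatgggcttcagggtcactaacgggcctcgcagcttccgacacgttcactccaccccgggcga
Sesn1: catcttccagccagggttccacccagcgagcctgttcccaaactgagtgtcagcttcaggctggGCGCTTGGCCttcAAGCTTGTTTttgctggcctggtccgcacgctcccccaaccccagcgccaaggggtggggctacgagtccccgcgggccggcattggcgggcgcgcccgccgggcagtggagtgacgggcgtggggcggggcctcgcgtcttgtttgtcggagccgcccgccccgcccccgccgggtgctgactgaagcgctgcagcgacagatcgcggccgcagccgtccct
The element of Ccng1 starts 195 bases before the annotated start (chr11:40755237-40755536, minus strand), has 1 mismatch and no spacer. That of Bax starts 201 bases before it (chr7:45466849-45467148, minus strand), with 2 mismatches and a spacer of 1 base. That of Rps27l starts 117 bases before a start inside the gene (chr9:66946163-66946462, plus strand), with 1 mismatch and no spacer. The window of Sesn1 also belongs to a start inside the gene (chr10:41887189-41887488, plus strand), and its element, 186 bases before that start, has 2 mismatches and a spacer of 3 bases. Ccng1, Bax and Rps27l were higher in PQ cells, as given below, and Sesn1 was not called in PQ against control. A match of letters is a description and does not show binding.

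In PQ cells 19 of the 29 tested p53 genes rose and 0 fell, against 9.07% of all tested genes called higher and 8.80% called lower. The death receptor gene Fas and the genes Ccng1, Eda2r and Trp53inp1 rose the most, with folds of 3.14, 2.50, 2.48 and 2.47. By function, 9 of 10 tested death genes (5 without PQ replicate 2), 4 of 7 feedback genes, 4 of 5 growth control genes, 1 of 4 repair genes and 1 of 3 tested metabolism genes rose. The metabolism count was 0 without any 1 control or PQ library, and the repair count was 2 under 2 other scalings and in a robust fit, where Xpc passed. The median log2 fold change was 0.62 over the 29 genes and -0.002 over all genes tested.

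Calls are edgeR's quasi-likelihood test with Benjamini-Hochberg adjustment over the 12813 genes at a threshold of 0.05. At an unadjusted p under 0.05 the counts for the set were 21 higher and 0 lower, and DESeq2 called 17 higher and 0 lower, limma on log2 FPKM 17 to 18 higher and 0 lower. The count of 19 was 13 without PQ replicate 2, and the count over all genes in the same fit was 829 in place of 2289. For 22 of the 29 genes both PQ libraries lay above both control libraries, and for 1, Rrm2b, both lay below, against 29.0% and 28.2% of all tested genes. The 6 endothelial markers summed to 106.8 to 123.6 CPM in PQ libraries, against 81.9 to 86.9 in control. Cldn5 was at 0, and 1 of the 6 passed the filter on low counts, so the sum rests mainly on that marker. It was called higher, and the part of these markers in the result was not tested.

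In NAC cells the set was split. Of the 29 tested genes 9 fell and 3 rose, against 9.26% and 8.65% of all tested genes, so that the share called higher (3 of 29) was near the background. The genes that fell were the feedback genes Ccng1 and Mdm2, the repair genes Polk and Rrm2b, the metabolism genes Tigar and Ephx1 and the growth control genes Plk3, Phlda3 and Plk2. Fas, Eda2r and Trp53 rose. The median log2 fold change was -0.20, against -0.002 over all genes tested.

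In edgeR's fit 6 genes of the set were higher and 14 lower with NAC at an unadjusted p under 0.05. The 9 that fell became 5 without NAC replicate 2, 6 without NAC replicate 1 and 6 in DESeq2. Of the 3 that rose only Fas passed when any of control replicate 2, PQ replicate 1, PQ replicate 2, NAC replicate 1 or NAC replicate 2 was left out. Both NAC libraries were below both control libraries for 16 genes and above them for 8, against 28.3% and 28.3% of all tested genes. In the NAC libraries the 6 astrocyte markers summed to 256.6 to 258.2 CPM, against 125.8 to 137.4 in control, with 4 of the 6 higher, and the 7 neuron markers to 320.3 to 360.5 CPM, against 198.9 to 209.4, with Rbfox3 at 0 and, of the 3 tested, 1 higher and 1 lower. The 6 oligodendrocyte markers summed to 82.2 to 94.6 CPM in NAC libraries, against 62.8 to 69.7 in control, with Mog and Mag at 0 and the 2 tested markers higher. The part of these shifts, or of the lower sum of stem cell markers given above, in the p53 genes was not tested.

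**Figure D2:**
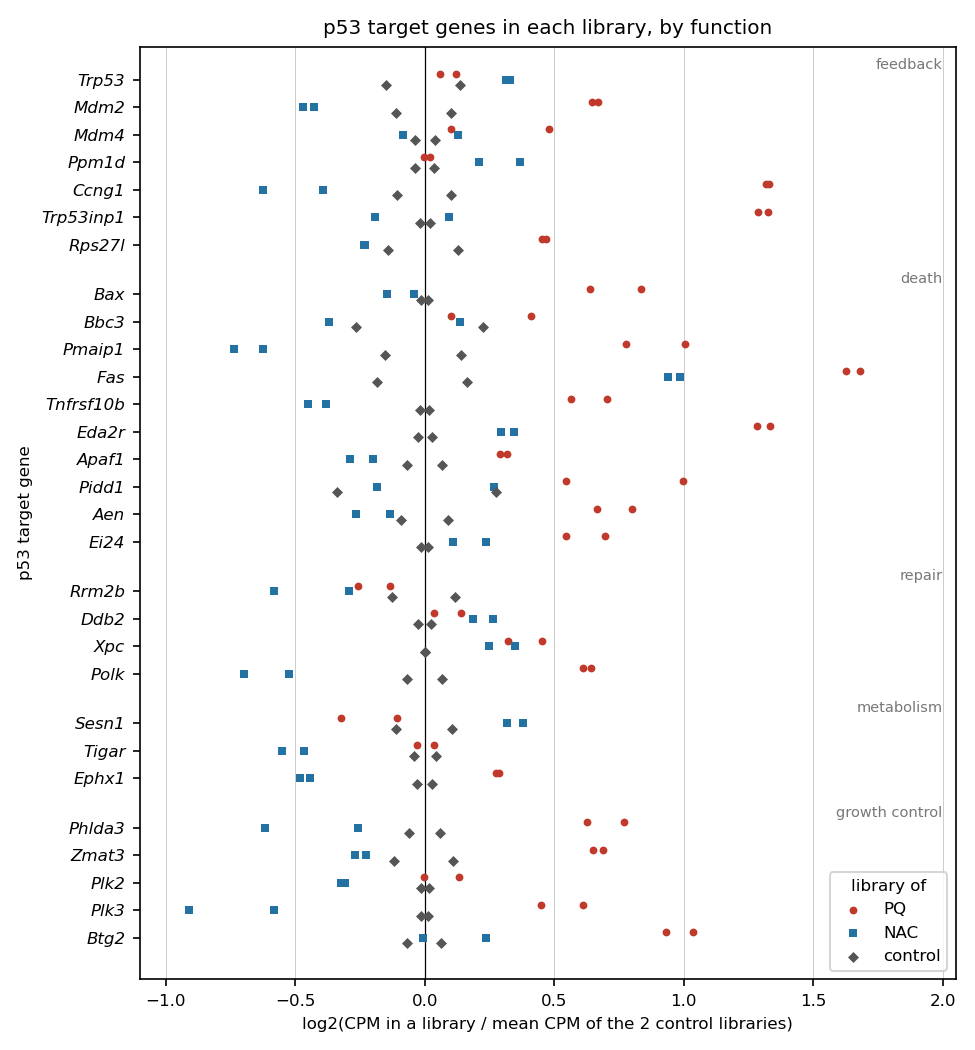
Each of the 29 tested p53 genes by function, as log2 of the CPM in a library over the mean CPM of the control libraries, with PQ, NAC and control libraries as separate points. PQ points lie to the right of the control points for 22 genes, while NAC points lie to the left for 16 and to the right for 8.

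The feedback genes did not move as a block. Trp53 (chr11:69580348-69591873, GRCm38) had 141.0 and 147.1 CPM in PQ libraries, 168.4 and 169.9 CPM in NAC libraries, and 148.8 and 122.0 CPM in control libraries. The PQ values lay within the control range and the NAC values above it. Its log2 fold change was 0.09 ± 0.10 (SE) with PQ, adjusted p = 0.61, and 0.32 ± 0.10 with NAC, adjusted p = 0.037. The NAC call was lost without any 1 library other than control replicate 1, with an adjusted p of 0.29 without control replicate 2.

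Mdm2 (chr10:117688875-117710758), the ligase that marks p53 for breakdown, had 207.1 and 210.5 CPM in PQ libraries, 98.6 and 95.7 in NAC libraries, and 122.8 and 142.3 in control libraries. The groups did not overlap, with PQ highest and NAC lowest. Mdm2 rose with PQ (0.66 ± 0.10, adjusted p = 0.00017) and fell with NAC (-0.45 ± 0.10, adjusted p = 0.0037). Its relative Mdm4, which binds p53 and blocks its activity, had 88.8 and 68.3 CPM in PQ libraries, 69.5 and 60.0 in NAC libraries and 61.9 and 65.3 in control libraries. PQ replicate 1 stood apart from the other 5 libraries, and Mdm4 did not pass in either treatment (0.30 ± 0.12, adjusted p = 0.096 with PQ, and 0.03 ± 0.12, adjusted p = 0.91 with NAC). Without the filter on low counts it passed with PQ (adjusted p = 0.0455). Its log2 fold change with PQ ranged from 0.1 to 0.48 in fits without 1 library, and was 0.48 without PQ replicate 2. Of the 50-base words of Mdm4 transcripts 7.3% also stand in transcripts of other genes, an Mdm4 pseudogene among them.

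Ccng1 (chr11:40748552-40755309) encodes cyclin G1, which recruits a phosphatase to Mdm2. It had 757.2 and 750.0 CPM in PQ libraries, 229.1 and 195.5 in NAC libraries, and 279.6 and 322.5 in control libraries. Ccng1 rose with PQ (1.32 ± 0.10, adjusted p = 3.4e-07) and fell with NAC (-0.50 ± 0.10, adjusted p = 0.0017). Trp53inp1, a nuclear protein that promotes phosphorylation of p53 and also acts in autophagy, had 545.8 and 531.7 CPM in PQ libraries, 232.8 and 190.9 in NAC libraries, and 221.1 and 215.1 in control libraries. Its rise with PQ was as large (1.30 ± 0.10, adjusted p = 3.4e-07), but NAC and control libraries overlapped (-0.04 ± 0.10, adjusted p = 0.82).

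Rps27l had 109.9 and 111.1 CPM in PQ libraries, 68.2 and 68.5 in NAC libraries and 72.8 and 87.8 in control libraries. Rps27l rose with PQ (0.46 ± 0.10, adjusted p = 0.0046, and 0.056 without PQ replicate 2) and did not pass with NAC (-0.23 ± 0.11, adjusted p = 0.15, and 0.033 without control replicate 1). In transcripts of other genes, pseudogenes among them, 11.2% of its 50-base words recur, so its count may be shared. Ppm1d encodes the phosphatase Wip1, which switches off p53 and the kinases upstream of it. It had 33.2 and 33.7 CPM in PQ libraries, 42.9 and 38.4 in NAC libraries and 34.1 and 32.4 in control libraries, and passed with neither PQ (0.01 ± 0.12, adjusted p = 0.97) nor NAC (0.29 ± 0.12, adjusted p = 0.093).

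Among the death genes, the cell surface receptor genes Fas and Eda2r rose most with PQ. Fas (chr19:34290647-34327775), the receptor of Fas ligand, had 26.2 and 27.2 CPM in PQ libraries, 16.8 and 16.3 in NAC libraries, and 9.5 and 7.48 in control libraries. The groups did not overlap, with PQ highest and control lowest. Fas rose with PQ (1.65 ± 0.16, adjusted p = 2.2e-06) and with NAC (0.96 ± 0.17, adjusted p = 0.00042). Eda2r (chrX:97333837-97377234), the receptor of ectodysplasin A2, had 126.6 and 131.1 CPM in PQ libraries, 63.8 and 66.1 in NAC libraries and 51.1 and 53 in control libraries. It too rose with PQ (1.31 ± 0.10, adjusted p = 2.9e-07) and with NAC (0.32 ± 0.10, adjusted p = 0.032). The NAC call was lost in DESeq2 (0.061) and without any 1 of the 6 libraries. Tnfrsf10b, the mouse receptor of the death ligand TRAIL, had 29.5 and 32.5 CPM in PQ libraries, 15.3 and 14.6 in NAC libraries and 20.2 and 19.7 in control libraries. It rose with PQ (0.63 ± 0.13, adjusted p = 0.003), a call lost without PQ replicate 2. Its lower value with NAC was at the threshold without passing it (-0.42 ± 0.14, adjusted p = 0.05). That value passed in the robust fit (0.0465), under RLE scaling (0.0498) and without the filter on low counts (0.0499).

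Of the mitochondrial death genes, Bax (chr7:45461695-45466903) had 120.3 and 138.1 CPM in PQ libraries, 69.9 and 75.1 in NAC libraries and 78.1 and 76.7 in control libraries. Bax rose with PQ (0.74 ± 0.10, adjusted p = 7.9e-05) and did not pass with NAC (-0.10 ± 0.10, adjusted p = 0.58), and 12.2% of its exonic bases are annotated to a second gene on the same strand. Pmaip1 was low, with 9.05 and 10.6 CPM in PQ libraries, 3.43 and 3.17 in NAC libraries and 4.75 and 5.82 in control libraries. With NAC its lower value did not pass (-0.67 ± 0.25, adjusted p = 0.067), but did without the filter on low counts (0.048). Pmaip1 rose with PQ (0.90 ± 0.21, adjusted p = 0.006), a call lost without PQ replicate 2. Bbc3, the BH3-only protein Puma, differed in this from Pmaip1 and Bax, with 18.7 and 23.2 CPM in PQ libraries, 13.5 and 19.2 in NAC libraries and 14.5 and 20.4 in control libraries. All 3 groups overlapped, and in each of them replicate 2 was the higher library. Among the libraries numbered replicate 1, as among those numbered replicate 2, PQ was highest and NAC lowest, but the labels state no such pairing. In the fit, which does not pair libraries, Bbc3 was the tested death gene that passed in neither direction with PQ (0.27 ± 0.19, adjusted p = 0.36). Nor did it pass with NAC (-0.09 ± 0.19, adjusted p = 0.80).

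Apaf1 and Pidd1 act upstream of the caspases. Apaf1, the scaffold of the apoptosome, had 76.1 and 77.6 CPM in PQ libraries, 54.2 and 51.0 in NAC libraries and 65.2 and 59.4 in control libraries. Its rise with PQ was the weakest of the death genes (0.30 ± 0.10, adjusted p = 0.045), and it was lost in DESeq2 (0.096), in limma (0.087 to 0.089) and without any 1 library other than control replicate 1 (0.058 to 0.23). Pidd1, a scaffold that activates caspase-2, had 28.8 and 39.4 CPM in PQ libraries, 17.4 and 23.8 in NAC libraries and 23.9 and 15.6 in control libraries. The spread within each group was wide, and its rise with PQ (0.79 ± 0.19, adjusted p = 0.0079) was lost without PQ replicate 2 (0.18) and without control replicate 2 (0.064). With NAC neither Apaf1 (-0.24 ± 0.10, adjusted p = 0.11) nor Pidd1 (0.06 ± 0.20, adjusted p = 0.88) passed.

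Aen, a nuclease that takes part in DNA breakdown in dying cells, had 150.1 and 165.0 CPM in PQ libraries, 78.9 and 86.4 in NAC libraries and 100.7 and 88.8 in control libraries. Ei24, a protein of the endoplasmic reticulum membrane, had 158.2 and 175.3 CPM in PQ libraries, 127.5 and 117.0 in NAC libraries and 109.3 and 107.4 in control libraries. The PQ libraries of these genes lay above all others. Aen (0.73 ± 0.10, adjusted p = 9.3e-05) and Ei24 (0.62 ± 0.10, adjusted p = 0.00027) rose with PQ, and with NAC neither passed (-0.20 ± 0.10, adjusted p = 0.21 for Aen and 0.17 ± 0.10, adjusted p = 0.25 for Ei24).

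**Figure D3:**
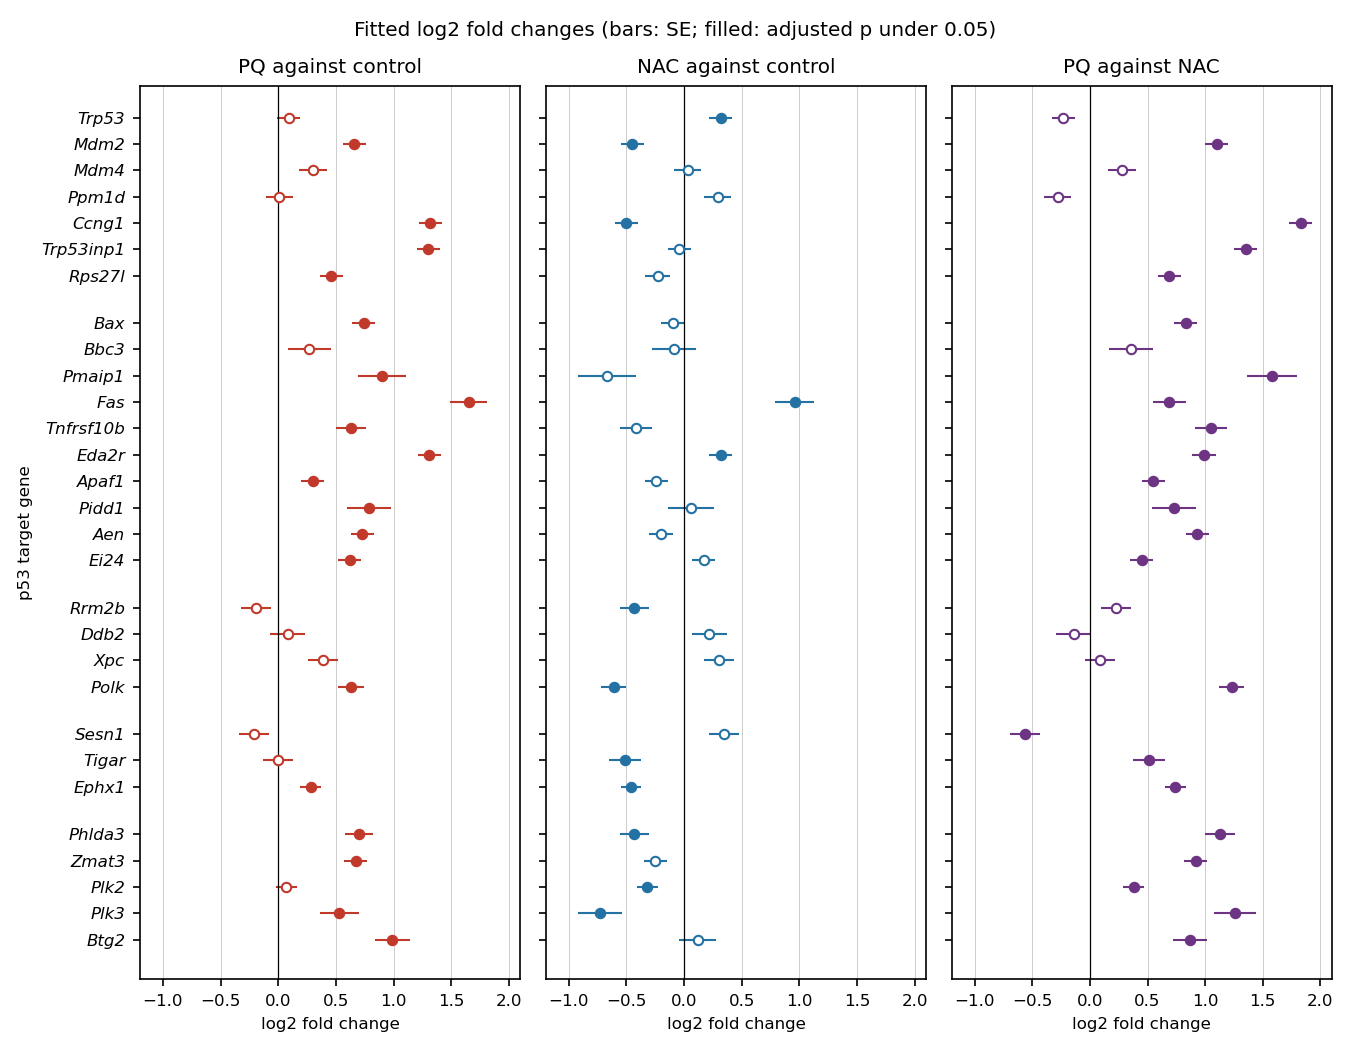
Fitted log2 fold changes of the 29 tested p53 genes by function, with a panel each for PQ over control, NAC over control and PQ over NAC, and with SE bars; filled points have an edgeR adjusted p under 0.05. The panel of PQ against control holds 19 filled points, all to the right of 0, that of NAC against control 9 to the left and 3 to the right, and that of PQ against NAC 21 to the right and 1 to the left.

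Of the repair genes, 1 rose with PQ, as 9 of 10 tested death genes did. It fell with NAC. Of the 10 tested death genes 0 were called lower with NAC, near the share of 9.26% over all tested genes. That count was 1 under RLE scaling and in the robust fit, and 2 without the filter on low counts. Polk (chr13:96480687-96542579), a DNA polymerase that copies past damaged bases, had 81.1 and 79.4 CPM in PQ libraries, 36.1 and 32.0 in NAC libraries and 49.5 and 54.4 in control libraries. The groups did not overlap. Polk rose with PQ (0.63 ± 0.11, adjusted p = 0.00049) and fell with NAC (-0.61 ± 0.11, adjusted p = 0.00073), and both calls stood in all alternatives tried.

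Rrm2b, the p53-induced subunit of ribonucleotide reductase, which supplies nucleotides for repair, had 36.2 and 33.2 CPM in PQ libraries, 32.4 and 26.5 in NAC libraries and 36.4 and 43.0 in control libraries. Its PQ libraries lay just below the control libraries without passing the test (-0.19 ± 0.13, adjusted p = 0.34), and it fell with NAC (-0.43 ± 0.13, adjusted p = 0.031), a call lost without NAC replicate 2 (0.28), without control replicate 2 (0.21), in DESeq2 (0.075) and in limma (0.11). Xpc, which recognises DNA lesions in nucleotide excision repair, just missed the threshold with PQ (0.39 ± 0.13, adjusted p = 0.0501), passed it under RLE scaling (0.0495), under library size scaling (0.037) and in the robust fit (0.0467), and did not pass with NAC (0.30 ± 0.13, adjusted p = 0.13). Ddb2, which recognises lesions made by ultraviolet light, had 14.5 and 15.6 CPM in PQ libraries, 17.0 and 16.1 in NAC libraries and 13.9 and 14.4 in control libraries. It passed with neither PQ (0.08 ± 0.15, adjusted p = 0.76) nor NAC (0.22 ± 0.15, adjusted p = 0.34), and Acp2 on the other strand covers 23.8% of its exons, whose reads it may hold.

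The metabolism genes were mixed. Ephx1 (chr1:180989556-181017569), which hydrolyses reactive epoxides, had 378.7 and 382.2 CPM in PQ libraries, 230.3 and 224.1 in NAC libraries and 319.0 and 306.9 in control libraries. Replicates were close and the groups did not overlap. It rose slightly with PQ (0.28 ± 0.09, adjusted p = 0.032), a call lost without any 1 control or PQ library (0.052 to 0.19), and fell with NAC (-0.46 ± 0.09, adjusted p = 0.0011).

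Tigar, a phosphatase that slows glycolysis and favours the pentose phosphate pathway, had 24.2 and 23.1 CPM in PQ libraries, 16.1 and 17.1 in NAC libraries and 22.9 and 24.3 in control libraries. PQ and control libraries overlapped (0.00 ± 0.13, adjusted p = 0.99), and Tigar fell with NAC (-0.51 ± 0.14, adjusted p = 0.015). That call was lost when NAC replicate 1 (0.11), control replicate 2 (0.066) or NAC replicate 2 (0.054) was left out, and in DESeq2 (0.053). Sesn1, a sestrin that restrains the growth kinase complex mTORC1, had 26.3 and 22.6 CPM in PQ libraries, 36.8 and 35.3 in NAC libraries and 30.4 and 26.2 in control libraries. Its NAC libraries were the highest, and its PQ and control libraries overlapped. Against control it passed in neither treatment (-0.21 ± 0.13, adjusted p = 0.31 with PQ, and 0.35 ± 0.13, adjusted p = 0.07 with NAC). With NAC it passed under library size scaling (0.041), and its log2 fold change was 0.47 without control replicate 1.

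Of the growth control genes, Phlda3, which blocks the kinase Akt at the membrane, had 60.5 and 66.8 CPM in PQ libraries, 25.5 and 32.7 in NAC libraries and 40.8 and 37.5 in control libraries. It rose with PQ (0.70 ± 0.12, adjusted p = 0.00067) and fell with NAC (-0.43 ± 0.13, adjusted p = 0.026). The NAC call was lost without NAC replicate 1 (0.31) or control replicate 1 (0.095), in DESeq2 (0.055) and in limma (0.071 to 0.074). Zmat3, an RNA-binding zinc finger protein, had 135.6 and 139.3 CPM in PQ libraries, 71.6 and 73.8 in NAC libraries and 93.2 and 79.6 in control libraries, and rose with PQ (0.67 ± 0.10, adjusted p = 0.00019), while its NAC value did not pass (-0.25 ± 0.10, adjusted p = 0.1, or 0.039 without control replicate 2). Btg2, an antiproliferative protein that works with the mRNA deadenylation machinery, had 23.0 and 24.7 CPM in PQ libraries, 12.0 and 14.2 in NAC libraries and 11.5 and 12.6 in control libraries. It rose with PQ (0.99 ± 0.15, adjusted p = 0.00025), and NAC and control libraries overlapped (0.12 ± 0.16, adjusted p = 0.67).

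The polo-like kinases Plk2 and Plk3, which act in stress responses and in the division cycle, were lower with NAC. Plk2 (chr13:110395044-110400844) had 247.4 and 225.4 CPM in PQ libraries, 182.3 and 180.2 in NAC libraries and 228.2 and 223.3 in control libraries. It was not called with PQ (0.07 ± 0.09, adjusted p = 0.67) and fell with NAC (-0.32 ± 0.09, adjusted p = 0.022). The NAC call was lost in limma (0.0523 to 0.0529) and without NAC replicate 2, NAC replicate 1 or control replicate 1. Plk3, at 14.2 and 15.9 CPM in PQ libraries, 6.95 and 5.54 in NAC libraries and 10.5 and 10.3 in control libraries, rose with PQ (0.53 ± 0.17, adjusted p = 0.037) and fell with NAC (-0.73 ± 0.19, adjusted p = 0.011). The PQ call of Plk3 was lost without any 1 control or PQ library, in DESeq2 (0.16) and in limma on log2(FPKM + 0.1) (0.052). Its NAC call was lost without NAC replicate 2.

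**Figure D4:**
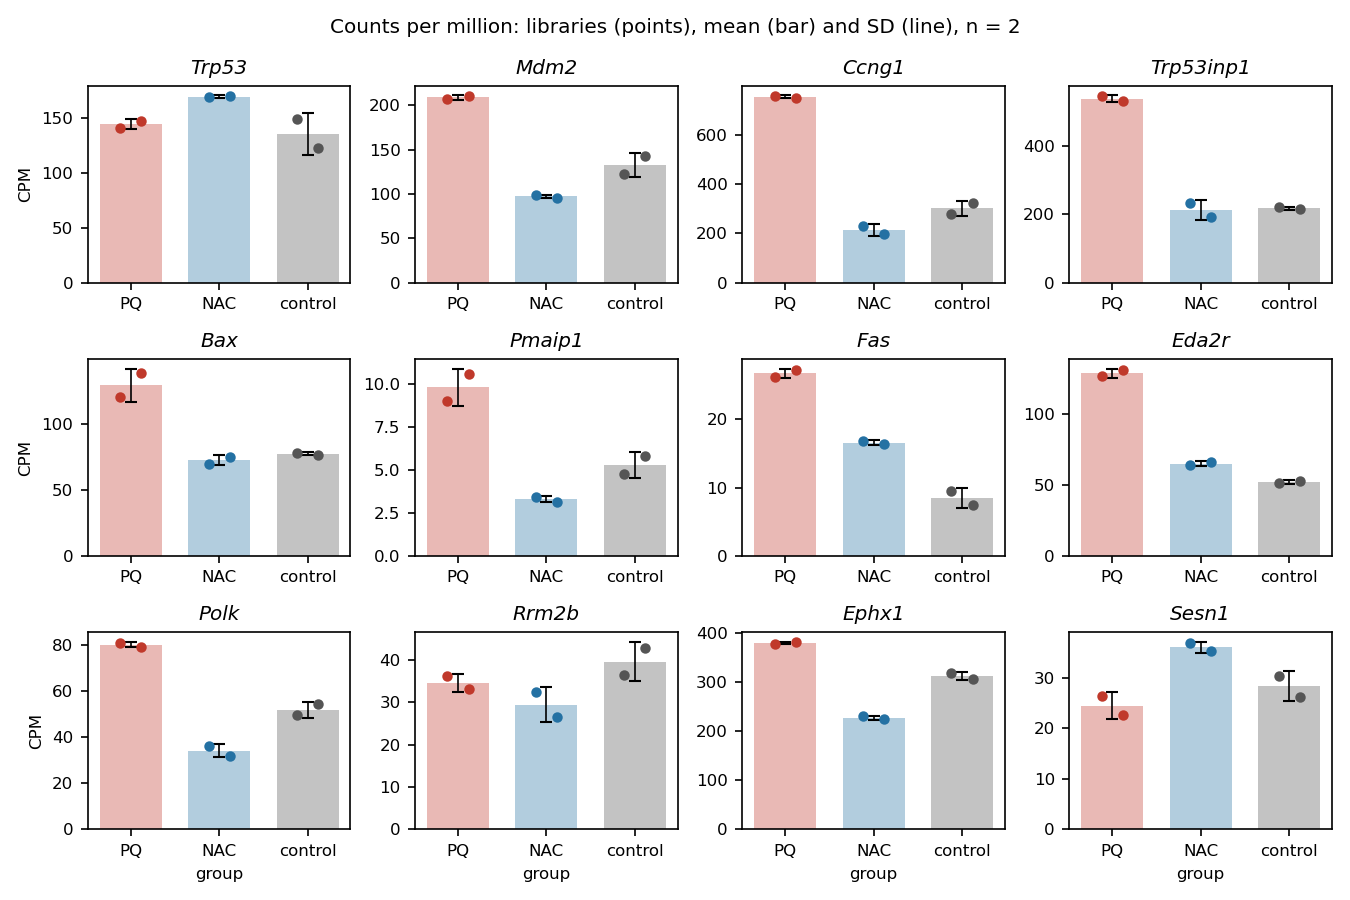
CPM of 12 p53 genes in PQ, NAC and control libraries (points), with the mean (bar) and SD (line) of 2 libraries. Mdm2, Ccng1, Bax, Pmaip1, Polk and Ephx1 are highest in PQ and lowest in NAC. Fas and Eda2r are lowest in control, and Trp53 and Sesn1 are highest in NAC.

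PQ against NAC sets the treatments against each other, with the spread estimated over all 6 libraries. In this comparison 21 of the 29 tested genes were higher in PQ cells and 1 was lower, against 15.5% and 15.1% of all tested genes, and the median log2 difference was 0.73, against 0.001 over all genes tested. Both PQ libraries lay above both NAC libraries for 22 genes and below them for 4, against 33.1% and 32.9% of all tested genes. All 5 growth control genes, 9 of 10 tested death genes, 4 of 7 feedback genes, 2 of 3 tested metabolism genes and 1 of 4 repair genes were higher. The largest differences were those of Ccng1 (1.83 ± 0.10, adjusted p = 1.2e-09), Pmaip1 (1.58 ± 0.22, adjusted p = 3.6e-05) and Trp53inp1 (1.35 ± 0.10, adjusted p = 2.9e-08), followed by Plk3 (1.26 ± 0.18, adjusted p = 3.7e-05) and Polk (1.23 ± 0.11, adjusted p = 1.8e-07). Sesn1 was the gene that was lower (-0.56 ± 0.13, adjusted p = 0.0031, and 0.065 without PQ replicate 2).

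The other called genes of that comparison had differences of 0.38 (Plk2) to 1.13 (Phlda3). Mdm2 differed by 1.10 ± 0.10, Tnfrsf10b by 1.05 ± 0.14 and Eda2r by 0.99 ± 0.10. Fas, which rose in both treatments, was also higher in PQ than in NAC cells (0.69 ± 0.14, adjusted p = 0.0014). The 7 genes that passed in neither direction were Trp53 (-0.23 ± 0.10, adjusted p = 0.097), Mdm4, Ppm1d, Bbc3, Rrm2b, Ddb2 and Xpc, with differences of -0.28 to 0.36. Trp53 was lower in PQ cells in the fit of the PQ and NAC libraries alone (adjusted p = 0.045), without control replicate 1 (0.0459) and without control replicate 2 (0.0464). Mdm4 passed without PQ replicate 2 (0.024), and Bbc3 without NAC replicate 2 (0.0459). The repair genes other than Polk were thus all among those not called. Pidd1, Tigar and Plk2 lost their call in some fits without 1 library: Pidd1 without PQ replicate 2 (0.15) or NAC replicate 1 (0.1), Tigar without NAC replicate 1 (0.077) or PQ replicate 1 (0.069), and Plk2 without PQ replicate 1 (0.077).

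Read across the 3 groups, 13 of the 29 genes had both PQ libraries above both control libraries and both NAC libraries below them, against 7.20% of all tested genes. They were Mdm2, Ccng1, Rps27l, Bax, Pmaip1, Tnfrsf10b, Apaf1, Aen, Polk, Ephx1, Phlda3, Zmat3 and Plk3. Of these, only Mdm2, Ccng1, Polk, Ephx1, Phlda3 and Plk3 were called in both PQ and NAC against control. The others were called with PQ alone, and their lower NAC values did not pass. The comparisons with control share the control libraries, so the values of the treatments are set side by side here and no relation between them was tested.

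Further lists, chosen with earlier results of these data known, place the set in its pathway. Their counts are therefore not independent of those results. Of 24 tested genes among 26 other p53 targets, 12 rose and 3 fell with PQ, and 2 rose and 8 fell with NAC, with median log2 fold changes of 0.38 and -0.17, against -0.002 over all genes tested in both. Of all tested genes 9.07% rose and 8.80% fell with PQ, and 8.65% rose and 9.26% fell with NAC, so the 3 that fell with PQ and the 2 that rose with NAC were near the background. Without PQ replicate 2 the PQ counts were 7 and 0, and DESeq2 and limma called 1 lower. Cdkn1a, the gene of the cell cycle inhibitor p21, had 1032 and 1084 CPM in PQ libraries, 222.8 and 254.8 in NAC libraries and 467.5 and 473.3 in control libraries. Cdkn1a rose with PQ (1.17 ± 0.09, adjusted p = 4.3e-07) and fell with NAC (-0.98 ± 0.09, adjusted p = 8e-07). The adenylate kinase Ak1 (0.83 ± 0.10) and the metalloreductase Steap3 (0.78 ± 0.14) rose with PQ and fell with NAC (-0.47 ± 0.10 and -0.91 ± 0.15), the NAC call of Ak1 being lost without NAC replicate 1 (adjusted p = 0.062), while Psrc1, a spindle protein, rose with PQ (0.69 ± 0.10) and did not pass with NAC (-0.08 ± 0.10, adjusted p = 0.65).

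Some other targets departed from that order. Ddit4, an inhibitor of mTORC1 that other stress pathways also induce, fell with PQ (-0.56 ± 0.12) and with NAC (-1.53 ± 0.13), and so did Sesn2, the second sestrin (-0.50 ± 0.15 and -1.36 ± 0.16). Both PQ calls were lost without PQ replicate 2 (adjusted p = 0.11 for Ddit4 and 0.091 for Sesn2), and that of Sesn2 also without control replicate 2 (0.4) and without PQ replicate 1 (0.17), in DESeq2 (0.057) and in limma (0.12). Inka2, an inhibitor of the kinase Pak4, rose with PQ (0.39 ± 0.09, adjusted p = 0.0057, and 0.12 without PQ replicate 2) and more with NAC (0.73 ± 0.09, adjusted p = 1.5e-05).

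Of 22 tested genes among 24 upstream regulators of p53, 1 rose and 3 fell with PQ, and 3 rose and 0 fell with NAC. The NAC counts were 5 and 0 at an unadjusted edgeR p under 0.05, and DESeq2 called 1 higher. Median log2 fold changes were -0.17 with PQ and -0.01 with NAC, against -0.002 over all genes tested in both. Of all tested genes 9.07% rose and 8.80% fell with PQ, and 8.65% rose and 9.26% fell with NAC. The called counts of the regulators against control were near these shares. Both PQ libraries lay below both control libraries for 11 regulators and above them for 3, against 28.2% and 29.0% of all tested genes. In PQ against NAC 1 regulator was higher and 8 were lower (0 and 5 in DESeq2), against 15.5% and 15.1% of all tested genes. The checkpoint kinase Chek1 (-0.77 ± 0.14, adjusted p = 0.0011) and the damage-sensing kinases Prkdc (-0.56 ± 0.12, adjusted p = 0.003) and Atr (-0.46 ± 0.11, adjusted p = 0.0058) fell with PQ. The call of Prkdc was lost without PQ replicate 1 (0.056) and in limma (0.061 to 0.068), and that of Atr without PQ replicate 2 (0.092) and in limma (0.056). The methyltransferase Setd7 rose with PQ (0.29 ± 0.10, adjusted p = 0.044) and NAC (0.42 ± 0.09, adjusted p = 0.0042), and its PQ call was lost without any 1 library other than control replicate 1 (0.06 to 0.22), in DESeq2 (0.064) and in limma (0.071 to 0.074). With NAC the kinase Atm (0.31 ± 0.10, adjusted p = 0.035) and the p53-binding protein Trp53bp2 (0.36 ± 0.11, adjusted p = 0.028) also rose. The call of Atm was lost in DESeq2 (0.055) and in limma (0.085 to 0.086). It was also lost without NAC replicate 1, control replicate 2, PQ replicate 1 or PQ replicate 2. That of Trp53bp2 was lost in DESeq2 (0.087) and without any 1 NAC or control library. Daxx, a partner of Mdm2, did not pass with NAC (0.33 ± 0.12, adjusted p = 0.077, or 0.0475 under library size scaling).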

How the data were processed

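Every deposited table gives, by gene, an expected count beside an FPKM, per the file headers. HISAT2 2.0.4, Bowtie2 2.2.5 and RSEM are listed in the submitters' processing notes, with mm10 as the build and no roles stated. The labels' protocols name rRNA depletion and oligo dT selection without saying which was used. Each deposited table lists only genes above 0, so absent genes were set to 0, and 20.9% to 21.4% of the deposited expected counts were not whole. Whether counting used the strand is not given in the sources used here.

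Expected counts were rounded and tested with edgeR 4.0.16 (limma 3.58.1, R 4.3.3): filterByExpr (minimum count 10, minimum total 15), TMM scaling and a quasi-likelihood fit over all 6 libraries with 1 mean per group and 3 residual degrees of freedom, adjusted by Benjamini-Hochberg over 12813 genes. CPM are TMM-scaled counts, SE is the log2 fold change over the square root of F, and SD is over 2 libraries. DESeq2 1.42.0, limma on log2(FPKM + 0.1) and log2(FPKM + 1), other scalings and filters, fits without each library and a fit with a block on runs of library numbers were alternatives. On simulated PQ against control counts of 12667 genes, the test found 74.6% of genes changed 1.5-fold, 91% at 2-fold and 100% at 4-fold. Of the calls 7.3% were false. A gene not called can therefore have changed by 1.5-fold. The changed genes were drawn in a single run, above the lowest counts and with the dispersions of the fit. They were far fewer than the 2289 genes called in PQ against control, and the adjustment depends on the share of changed genes. The shares found, that of false calls included, thus need not hold for the data and do not cover genes at the lowest counts. The genes, lists and comparisons were chosen with earlier results of these data known. All members were named, with values per library for those called in a treatment against control and for Trp53 and Mdm2, to which those of Mdm4, Ppm1d, Bbc3, Ddb2 and Sesn1 were added after their values were seen, and of the pathway lists up to 4 genes with the smallest p per treatment, Cdkn1a and Sesn2. Symbols were matched through the RefSeq table (17199 of 17254 identifiers). Exon overlaps and shared 50-base words are from GENCODE M21 (GRCm38), and promoters from RefSeq (GRCm38.p6). The replicate numbers name libraries in the order listed and pair none.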

Additional observations from a re-analysis of the deposited data

How the results depend on the processing

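With 15 alternatives per comparison, 12 of the 19 genes called in PQ against control kept their call in all of them, as did 5 of the 12 in NAC against control and 18 of the 22 in PQ against NAC. The last of the 15, a replicate block on the runs of library numbers 8 to 10 and 11 to 13, was added after seeing the data. Each run holds 1 library of each group, but the labels do not say that a run marks a batch. For that reason the numbers were not taken to pair the libraries. The differences between runs correlated across genes by -0.11 to 0.11 between groups. A correlation over all tested genes does not show whether some of them differ between runs, which was not tested. With the block 16 genes rose with PQ, 1 rose and 8 fell with NAC, and 21 were higher and 1 lower in PQ than in NAC. It ended the PQ calls of Apaf1 (adjusted p = 0.073), Ephx1 (0.064), Plk3 (0.057) and Setd7 (0.078) and the NAC calls of Trp53 (0.063), Eda2r (0.057), Rrm2b (0.0545), Trp53bp2 (0.0519) and Atm (0.059). Bbc3, whose second-run library was the higher one in each group, did not pass with PQ under the block (0.25). In edgeR's fit of the 4 libraries compared, the PQ calls of Apaf1 (adjusted p = 0.0539) and Setd7 (0.055) were lost. So were the NAC calls of Trp53 (0.0526), Eda2r (0.0505) and Atm (0.0524). Library size scaling ended the NAC calls of Rrm2b (0.0514) and Phlda3 (0.0524). None of the called genes changed sign. The count of genes that rose with PQ ran from 13 to 18 without 1 library and from 16 to 20 otherwise, that of genes lower with NAC from 5 to 9 and from 6 to 11, and that of genes higher in PQ than in NAC from 19 to 22 and was 21 otherwise. Genes that rose with NAC numbered 1 to 3 without 1 library, 1 in the fit of the 4 libraries compared or with the block, and 2 to 4 in the others, and genes lower in PQ than in NAC 0 to 2 without 1 library and 2 in the fit of the 4 libraries compared. Over all genes the calls without 1 library were 829 to 2181 for PQ, 1338 to 2157 for NAC and 2427 to 4442 for PQ against NAC. Library size as the only scaling moved the median of all genes by at most 0.047. Values of uncalled genes crossed 0 in fits without 1 library: with PQ, Trp53 ranged from -0.04 to 0.24, Ppm1d from -0.02 to 0.05, Tigar from -0.04 to 0.05, Trp53bp2 from -0.02 to 0.01 and Daxx from -0.13 to 0.01, and with NAC, Mdm4 from -0.08 to 0.13, Bbc3 from -0.36 to 0.18, Pidd1 from -0.21 to 0.40, Trp53inp1 from -0.19 to 0.10 and Chek1 from -0.07 to 0.18. With 1 library left out, the lone library of its group is assumed to vary like the other groups. Such fits also hold fewer libraries, and the cause of these changes was not tested. Pmaip1, Bbc3 and Pidd1 had the widest standard errors with PQ (0.19 to 0.21), so changes in these genes were the least well resolved.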
